A study of Drosophila melanogaster with 3 samples.

Results

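The gene su(Hw) and the sequence around it on chromosome 3R were examined for peaks of the protein that the same gene encodes. The region was chosen by position alone. It ran from 20 kb before to 20 kb after the gene, chr3R:14284455-14328589 (dm6, 44135 bp), and every peak whose summit lay there was taken. It held 6 of the 6127 peaks in the list that the authors thresholded for reproducibility, and 26 of the 30000 in the pooled list. The lists of replicates 1, 2 and 3, of 30000 peaks each, had 29, 20 and 27 summits there.

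The series mapped su(Hw) by chromatin immunoprecipitation sequencing in whole Drosophila melanogaster embryos collected 0 to 24 hours after laying, with both sexes pooled. The 3 samples were biological replicates of 1 group, a transgenic line that stably expresses su(Hw) with green fluorescent protein at its C terminus, and no other genotype or treatment was compared. Chromatin was broken by sonication to 200 to 800 bp, and the description gives an antibody to the tag, where the field for the antibody has su(Hw). The labels do not say where the transgene sits, how much su(Hw) sequence it carries or what drives it, so reads from the transgene and from the native gene cannot be told apart in these lists.

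su(Hw) is a zinc finger protein that binds a long, well defined DNA sequence and recruits the partners Cp190 and mod(mdg4). These complexes form chromatin insulators, elements that can block an enhancer from acting on a promoter when they lie between them, and the gypsy retrotransposon is their best known carrier. The protein is also a repressor of neuronal genes in the female germ line. The peak lists measure where the protein was recovered, not what it does there.

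The sequences that matter here are the 28-base sites that best matched the su(Hw) binding sequence under the peak, because they show what the protein could have recognised at its own gene. The binding sequence was scored with a matrix of 28 positions, learned from the 612 of the strongest 613 thresholded peaks that lay outside the region: the score is the log2 of how much more likely a site is under the matrix than under the base composition of windows 2 kb from summits. Each site is written 5′ to 3′ on the strand named, from the RefSeq Release 6 genome, and capitals mark the 12 positions of the published consensus. The first line is the best site within 100 bp of the summit, and the second is the best of the whole peak.
su(Hw) site A, chr3R:14308017-14308044 (+): gtgaccgcTTTAGTCTACTTttaggcac
su(Hw) site B, chr3R:14308258-14308285 (+): cgcaaatcCGTAGCATACTTttcaaata
The best sites within 100 bp of the summit under peaks of like strength are shown beside them, those whose nearest gene starts, 1582 bp and 10494 bp away, are of Loxl1 and Glut3, and the one inside ush.
Loxl1 site, chr3R:31458309-31458336 (-): ttattttaTGCGGCATACTTttctgcgg
Glut3 site, chr3R:16798787-16798814 (-): gaacaaatTTCTGCATACTTttaggcat
ush site, chr2L:490234-490261 (-): accgcttgCAAGGCATACTTttaggctt

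su(Hw) spans chr3R:14304455-14308589 on the minus strand (4135 bp), and all 3 of its annotated transcripts start at 14308589. Its neighbour Polr2I, which encodes a subunit of RNA polymerase II, runs the other way from 14309089. The starts are 500 bp apart and 499 bp lie between the genes, so the pair is divergent.

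One very strong peak lay over the start of su(Hw). It spanned chr3R:14307615-14308772, 1158 bp, with its summit at 14308104 and a signal of 14985. It ranked 5 among the 6127 thresholded peaks and 5 in the pooled list. Its signal, a value of the authors' peak caller on an undefined scale, was 72.0% of that of the strongest peak and 37.0-fold above the thresholded median of 405. The peaks just above and just below it in rank had signals of 15793 and 13984.

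The 3 replicates placed the peak alike. It ranked 5 in replicate 1, 4 in replicate 2 and 5 in replicate 3. The signals were 3599, 4363 and 7154.5 in those lists, which are not on 1 scale, and 102, 125 and 126 times the median of each list. The mean of these ratios was 118 ± 13.4 (SD, n = 3). The 3 summits lay at 14308104, 14308114 and 14308107. This range of 10 bp was narrower than that of 84.8% of the 5956 thresholded peaks found in all 3 lists, whose median was 41 bp. Strong peaks are placed more sharply in general, and the median range over the strongest 100 was 8 bp. The same control alignment stood behind every list, per the file notes, so the 3 lists are not wholly independent.

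**Figure D1:**
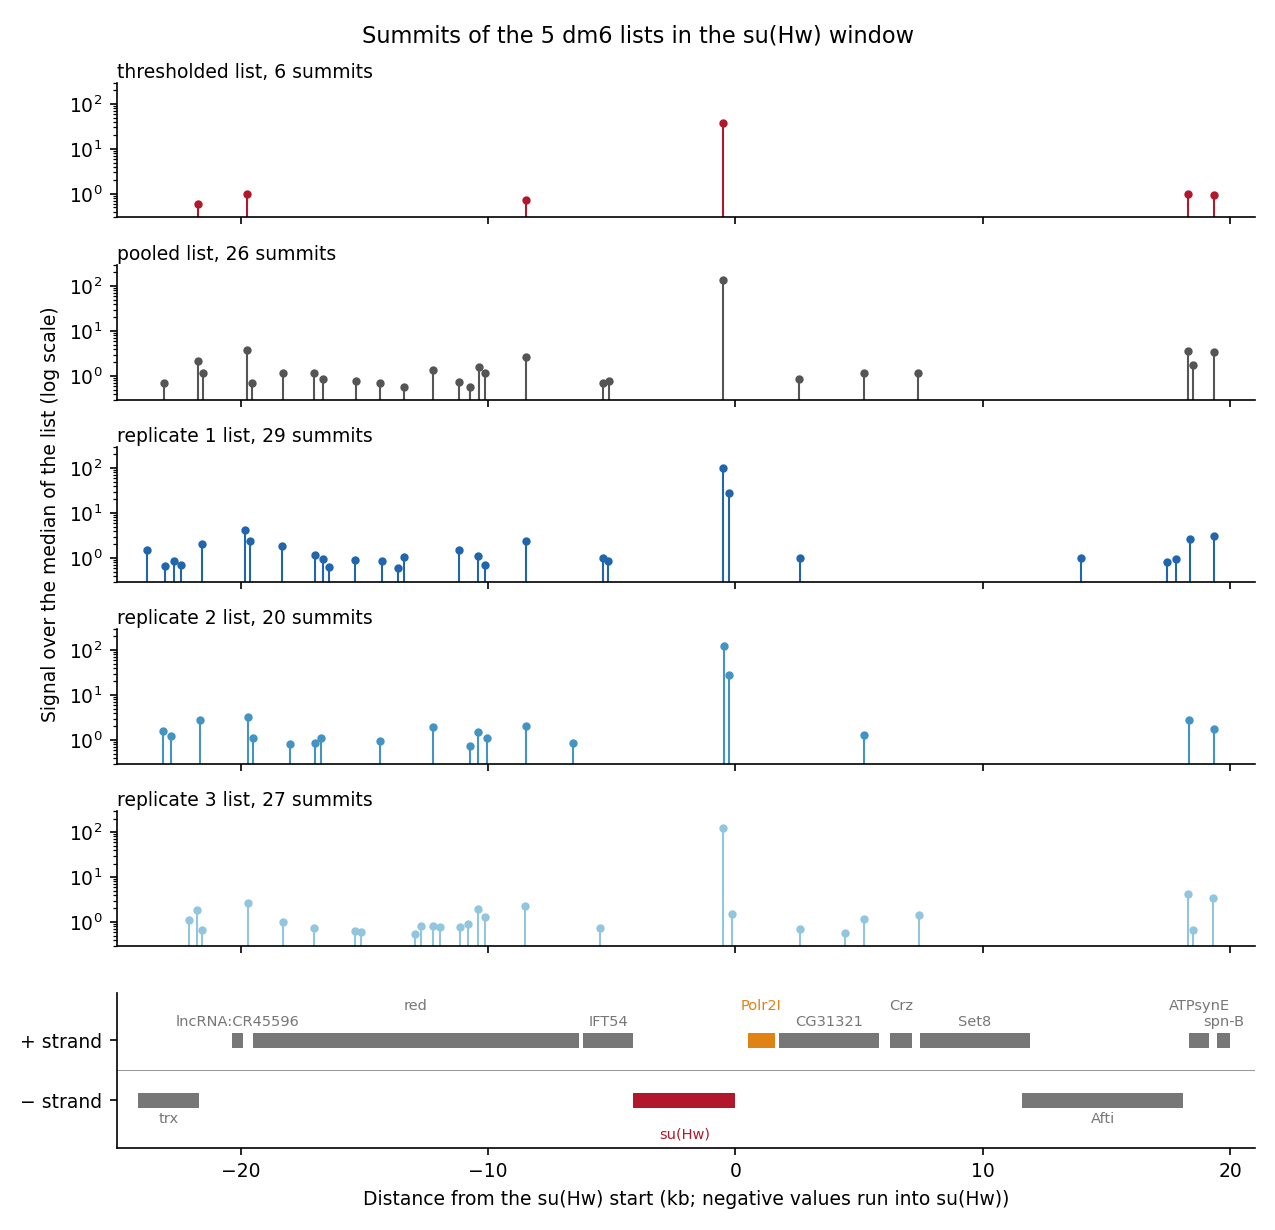
Summits of the thresholded, pooled and 3 replicate lists across the su(Hw) region, by distance from the su(Hw) start (kb) on the horizontal axis and by signal divided by the median of the same list (log scale) on the vertical axis, with the genes drawn below by strand. In each of the 5 lists the peak at the su(Hw) start stands at 37.0 to 135 times the median and the summits outside the su(Hw) gene at 4.23 times or less.

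The summit fell inside the gene. It lay 485 bp downstream of the su(Hw) start and 985 bp upstream of the Polr2I start, 149 bp before the first base of the start codon. That position is in a 174 bp exon of the 5′ untranslated region, 14308035 to 14308208, which 1 of the 3 transcripts carries, and in an intron of the other two. The interval covered 341 bp of coding sequence at one end. At the other it reached 183 bp past the su(Hw) start and stopped 317 bp short of the Polr2I start. By a rule that asks only for a summit from 1000 bp upstream to 100 bp downstream of a start, Polr2I had this peak and su(Hw) did not. By a rule that asks for a summit in the gene body, su(Hw) had it and Polr2I did not.

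The rest of su(Hw) was empty. No summit of any of the 5 lists lay in the su(Hw) body more than 1 kb from its start, and none lay in the Polr2I body or between the genes. The next summit toward the 3′ side, 4633 bp away at 14303471, was a weak one in IFT54. Among the gaps between neighbouring pooled summits the median was 1481 bp, and 80.1% were shorter than this gap. Whether any su(Hw) sequence in the transgene contributed to the peak was not tested.

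The peak was also wide. Its 1158 bp exceeded the width of 99.8% of the thresholded peaks, of which 10 were wider, and 59.8% of the list had 1 common width of 524 bp. Among the strongest 100, widths ran from 600 to 1210 bp with a median of 761 bp, and 1 was wider. Among the strongest 15 the su(Hw) peak was the widest, against a low of 799 bp. In replicates 1, 2 and 3 the interval measured 1028, 1049 and 1181 bp.

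**Figure D2:**
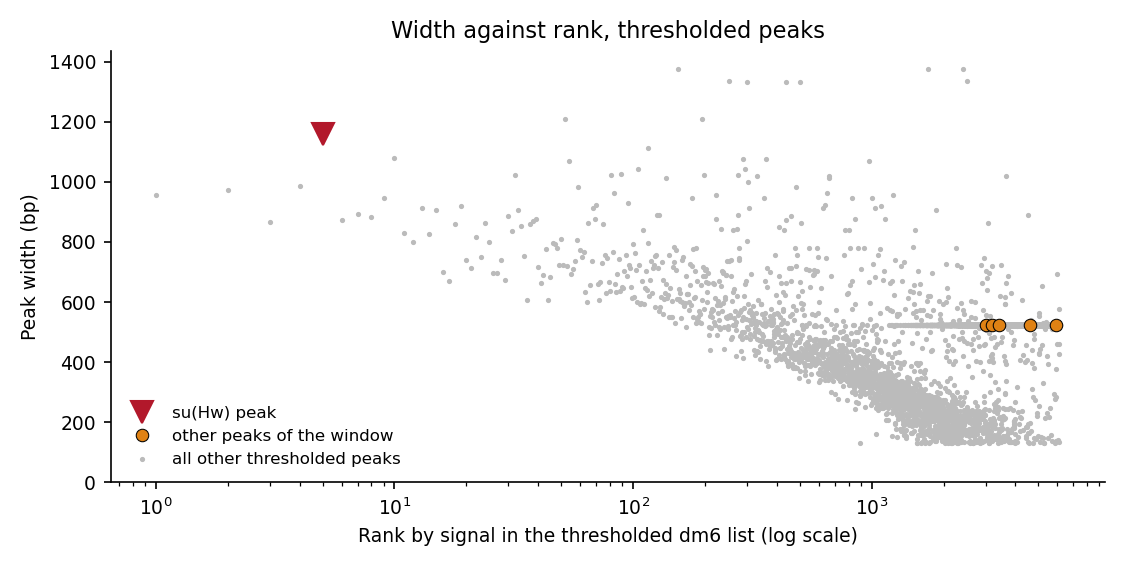
Peak width (bp) against rank by signal (log scale) for the 6127 thresholded peaks, with the su(Hw) peak as a red triangle, the other 5 peaks of its region in orange and all others in grey. The su(Hw) peak, at rank 5 and 1158 bp, lies above all others of the strongest 15, while the other 5 sit on the common width of 524 bp.

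Each replicate list split the interval and gave it 1 additional summit, which the pooled and thresholded lists did not have. In replicate 1 the additional summit was at 14308349, 245 bp from the main one, with 27.0% of its signal and a rank of 221. In replicate 2 it was at 14308344, 230 bp away, with 22.7% of the signal and a rank of 265. Replicate 3 differed: its additional summit was at 14308469, 362 bp away, with 1.20% of the signal and a rank of 9206. All 3 positions lie between the main summit and the su(Hw) start, 240, 245 and 120 bp downstream of the start, in an untranslated exon of 2 of the 3 transcripts. Intervals with more than 1 summit are common among strong peaks: of the strongest 100 peaks, 33, 28 and 48 were in such an interval in replicates 1, 2 and 3.

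In replicates 1 and 2 the summits were spaced much like sites A and B. Site A was centred 558 bp and site B 317 bp downstream of the su(Hw) start, 241 bp apart. Site A spans the 3′ boundary, at 14308035, of the exon that 1 transcript carries, and site B spans the 3′ boundary of the first exon in 2 of the 3 transcripts. The main summit lay 73, 83 and 76 bp from the centre of site A in replicates 1, 2 and 3, on its start-ward side. The additional summit lay 77 and 72 bp from the centre of site B in replicates 1 and 2, on the same side, and 197 bp from it in replicate 3. The best site within 100 bp of the additional summit of replicate 3 was another one, chr3R:14308510-14308537 (+), which scored 5.96. The 73 bp from the summit to site A was long for a strong peak. Over the 590 of the strongest 613 peaks with a score above 0, the median distance of site to summit was 20 bp. In 4.92% it was farther than 73 bp. These sites were searched only within 100 bp of the summit, so a distance such as 197 bp could not occur among them. Of the peaks most like su(Hw) in rank, described below, that near CG32301 had its best site 72 bp from the summit. The rest had theirs 5 to 35 bp away.

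**Figure D3:**
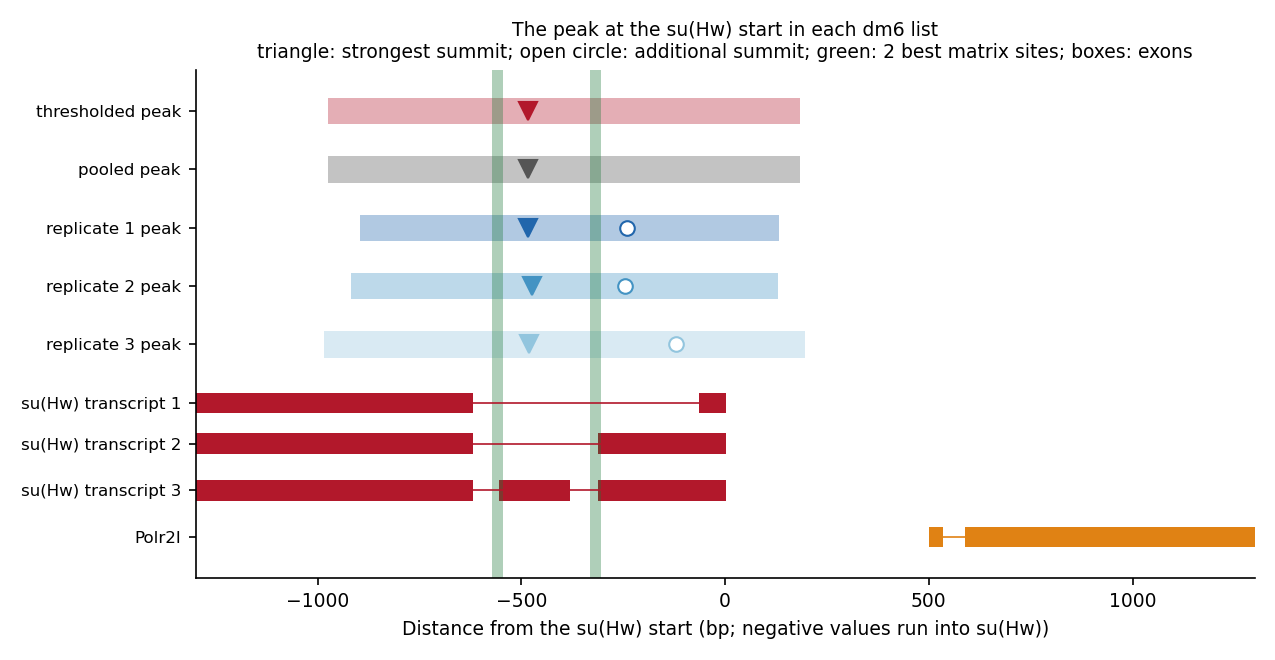
The peak at the su(Hw) start in each of the 5 lists as a bar, by distance from the start (bp), with the main summit as a triangle, the additional summit as an open circle, sites A (left) and B (right) as green bands and the exons of su(Hw) and Polr2I as boxes below. The main summit sits just right of site A in all 5 lists, and the open circle sits 77 and 72 bp right of site B in replicates 1 and 2.

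Neither site was a strong match. Site A scored 12.2, with 4 mismatches to the 12-base consensus, and site B scored 15.1, with 1 mismatch. The median of the best scores within 100 bp of the summit was 22.1 over the strongest 50 peaks, 20.1 over the strongest 613 and 4.17 over all thresholded peaks. The matrix was learned from these strongest peaks, which favours their scores, and not from su(Hw). Within 100 bp of the summit, site A had the lowest score of the strongest 15 peaks, and 1 of the strongest 50 had a lower one. Over whole intervals, where site B is the best of su(Hw), 1 of the strongest 15 had a lower best score, and 6 of the 49 distinct intervals of the strongest 50. It was still above 98.5% of 12254 windows 2 kb from thresholded summits, whose median was 1.48, and site B was above 99.3%, although it was picked from a longer interval than those windows.

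With the consensus itself, searched by name on both strands within 100 bp of the summit, no match with up to 1 mismatch was found at the su(Hw) peak. A match with 2 mismatches was there. Matches with up to 2 mismatches, closer ones included, lay at 92% of the strongest 50 peaks and at 58.3% of all thresholded peaks. They lay in 40.9% of windows 2 kb away. Of the strongest 50 peaks, 39 (78%, Clopper-Pearson 95% interval 64.0 to 88.5) had a match with up to 1 mismatch, so su(Hw) was among the 11 without. With a window of 200 bp the su(Hw) peak did have such a match. The intervals of shares cover counting error only. The core TGCATA was absent from the su(Hw) window and was found at 64% of the strongest 50. The Zelda sequence CAGGTAG, found in 0.930% of all thresholded windows and 1.44% of windows 2 kb away, was in the su(Hw) window.

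**Figure D4:**
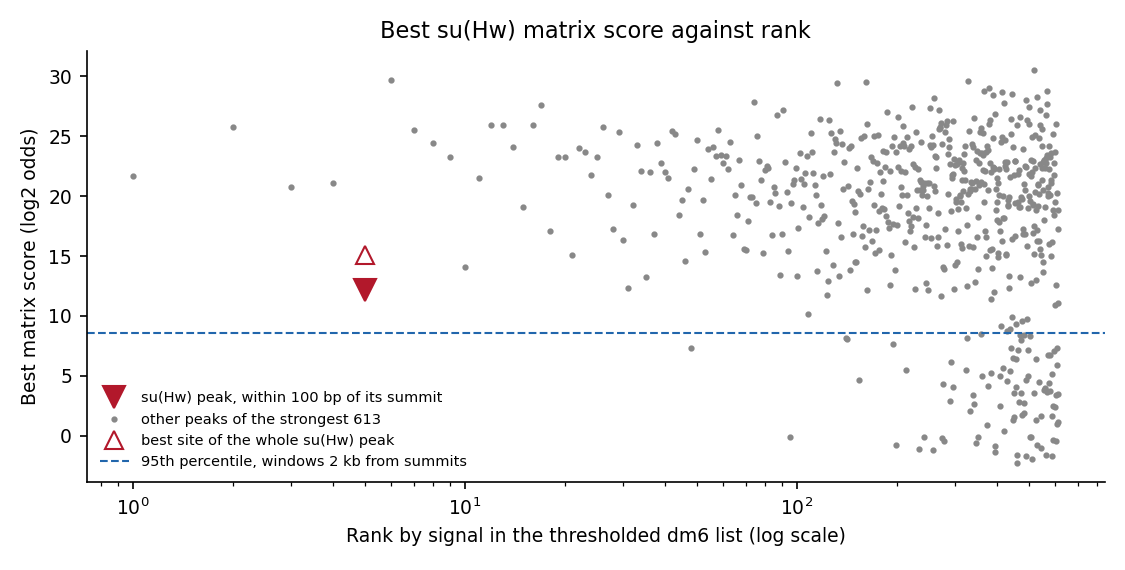
Best matrix score (log2 odds) within 100 bp of the summit against rank by signal (log scale) for the strongest 613 thresholded peaks, with the su(Hw) peak as a filled red triangle, the best site of its whole interval as an open one and a dashed line at 8.54, the 95th percentile of windows 2 kb from summits. The su(Hw) peak, at 12.2, lies above the line and below every other peak of the strongest 15.

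More than 1 site per interval was usual for strong peaks. Counting non-overlapping sites above 8.54, the 95th percentile of the windows 2 kb away, the su(Hw) interval had 2. Those windows are shorter than the intervals, and intervals of like length away from peaks were not counted. Whether peaks held more such sites than other stretches of their length was therefore not tested. The strongest 100 peaks lay in 99 distinct intervals. Of the other 98, 67 had at least 2 such sites, 30 had 1 and 1 had none. Widths did not separate these groups: the median was 753 bp with at least 2 sites and 766.5 bp with 1, with ranges of 600 to 1210 bp and 615 to 1070 bp.

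The stretch of the su(Hw) promoter that the peak covers is shown because the interval runs across the start of the gene. It is chr3R:14308590-14308772 on the minus strand, 183 bases ending next to the first base of su(Hw), in lower case throughout since no searched sequence was found in it.
su(Hw) promoter under the peak: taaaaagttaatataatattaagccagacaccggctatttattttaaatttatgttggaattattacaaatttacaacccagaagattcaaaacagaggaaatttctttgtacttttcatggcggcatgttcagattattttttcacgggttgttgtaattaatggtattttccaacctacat
The sequences searched on both strands were the su(Hw) core TGCATA, present in 9.71% of 19276 promoters of the same length, and the BEAF-32 sequence CGATA, present in 34.7%. The DREF sequence TATCGATA, which contains CGATA, is in 5.91% of them, and the GAGA factor sequence GAGAGAG in 5.87%. The Zelda sequence CAGGTAG is in 1.12% and the M1BP sequence GGTCACAC in 3.15%. In the whole 499 bp between su(Hw) and Polr2I, 1 of the 6 was found, a TGCATA 365 bp upstream of the su(Hw) start, outside the peak.

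The other 5 thresholded summits of the region were weak. Their signals were 36.6-fold to 61.7-fold below that of the su(Hw) peak, their ranks ran from 3018 to 5915, and all were 524 bp wide. On one side of su(Hw) they lay 8.46, 19.7 and 21.7 kb downstream of its start, and on the other 18.3 and 19.4 kb upstream. The nearest was 7975 bp from the su(Hw) summit. Over all thresholded summits the median distance to the nearest other was 2955 bp, and 74.4% had a closer one than su(Hw). Over the strongest 100 the median was 4124 bp. Of the peaks most like su(Hw) in rank, described below, those near Loxl1, CG33453 and Glut3 were farther from a neighbour (31066, 17499 and 142567 bp). Those at CG32301 and ush were nearer to one (7080 and 1852 bp).

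The summit nearest to su(Hw), at 14300129, lay in an intron of all 7 transcripts of red, a gene named for the colour of mutant Malpighian tubules. It ranked 4444, 5723 and 5414 in replicates 1, 2 and 3, with a mean of 2.25 ± 0.216 times the list median (SD, n = 3). The summit at 14288852 lay 219 bp upstream of the red start and 623 bp downstream of the start of lncRNA:CR45596, with ranks of 2121, 2977 and 4480 and a mean ratio of 3.37 ± 0.794 (SD, n = 3). The summit at 14286855 was in the 5′ untranslated exon of trx, 48 bp downstream of the start of this gene for a histone H3 methyltransferase of the trithorax group. It ranked 5759, 3638 and 7066, its mean ratio was 2.22 ± 0.492 (SD, n = 3), and the replicates placed it within a range of 199 bp. The body of trx runs past the region and held 4 thresholded summits in all, the strongest with rank 772.

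On the Polr2I side, the summit at 14326884 lay between Afti and ATPsynE, 195 bp upstream of Afti and 63 bp upstream of ATPsynE, which encodes the epsilon subunit of mitochondrial ATP synthase. It ranked 4079, 3654 and 2510 in replicates 1, 2 and 3, with a mean ratio of 3.16 ± 0.826 (SD, n = 3). The summit at 14327945 lay 106 bp upstream of spn-B. It ranked 3196, 7000 and 3164, with a mean ratio of 2.77 ± 0.911 (SD, n = 3). The ratios of these 5 summits overlapped between sites, and none came near those of su(Hw), which were 102 or more. All 6 summits had a match within 200 bp in each whole replicate list, as did 5956 of the 6127 thresholded peaks. When each list was cut to its strongest 6127, 4 of the 6 had one. The share over all thresholded peaks at that depth was not computed.

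**Figure D5:**
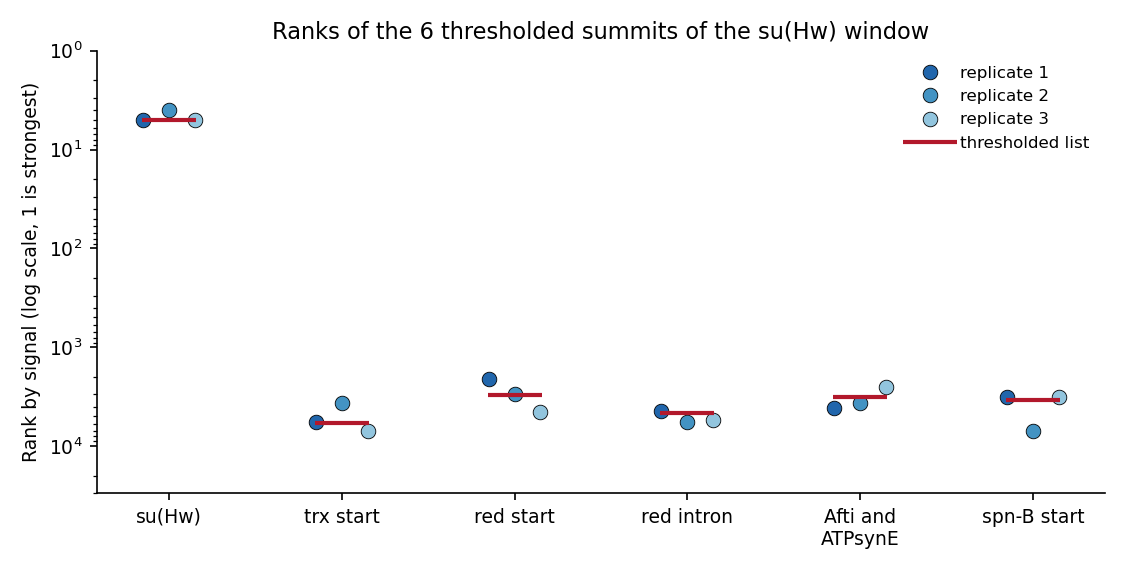
Rank by signal (log scale, strongest at the top) of the 6 thresholded summits of the su(Hw) region, with 1 point for each replicate and a red bar for the thresholded list. The su(Hw) peak stays at ranks 4 and 5, while the other 5 range from 2121 to 7066 in the replicates.

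The best sites of these 5 peaks scored below site A of su(Hw), which had 12.2. They reached 6.49 (trx), 3.18 (red intron), 1.70 (spn-B), 0.85 (between Afti and ATPsynE) and -0.57 (red start), all under the 8.54 that 5% of windows 2 kb away exceed. The trx window held a consensus with 1 mismatch, TGCATA and GGTCACAC. Of all thresholded windows, 21.6% hold a consensus with up to 1 mismatch, 23.5% TGCATA and 2.73% GGTCACAC. In windows 2 kb away the shares are 5.07%, 11.2% and 0.563%. The window in the red intron held TGCATA.

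The remaining 20 pooled summits of the region, below the threshold, had signals of 63.8 to 199 and ranks from 7552 to 29049. Matches within 200 bp were found in all 3 replicates for 6 of them (30%), in 2 for 11 and in 1 for 3. Over all 23873 pooled peaks below the threshold the share in all 3 was 35.2%. Of the 6, those at 14287054, 14289052 and 14327085 lay beside a thresholded summit. All 3 matches of 14327085 were those of that summit, as were 2 of the 3 at 14287054 and at 14289052. A match was the strongest replicate summit within 200 bp, so a nearer but weaker one was passed over. Such summits lay at 14327095 in replicate 3 and at 14289086 in replicate 2. The other 3 of the 6 were in red: 14291575, and 14298220 and 14298466, each 5 bp from an internal start of that gene. Their mean ratios were 0.917 ± 0.223, 1.54 ± 0.407 and 1.03 ± 0.308 (SD, n = 3).

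The region holds 12 genes, 11 of them protein coding. A thresholded summit in the body or within 1 kb was present at 7 of the 11 (trx, red, su(Hw), Polr2I, Afti, ATPsynE and spn-B), against 37.1% of all 13968 protein-coding genes. Neighbouring genes shared summits here, since su(Hw) and Polr2I were counted for 1 peak and Afti and ATPsynE for another. IFT54, CG31321, Crz, the gene of the neuropeptide corazonin, and Set8, a histone H4 methyltransferase gene, had none. The 6 summits exceeded the count in 83.2% of windows drawn by the same rule around all protein-coding genes, where the median was 3. These windows vary in length with the gene. Among the 1539 genes within 1.25-fold of the length of su(Hw), 82.2% had fewer.

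The su(Hw) peak was 36.6 times as strong as the next summit there. In the 9851 gene windows with at least 2 summits the median of this ratio was 1.60, it was smaller in 99.8% and larger in 18. These windows overlap, so a single strong peak is counted for several genes. The su(Hw) peak itself gave the larger ratio of 38.1 in the windows of Afti and ATPsynE. No comparison was made with only those windows that hold a peak of like strength.

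Genes listed as those of other insulator proteins and their partners had weaker peaks than su(Hw). The list also held Rbp9, a gene of an RNA-binding protein rather than of an insulator protein, and no share was computed without it. Of 22 listed, Rbp9 included, 13 (59.1%) had a thresholded summit in the body or within 1 kb, against 37.1% of all protein-coding genes. The strongest was at Chro, the gene of chromator, with rank 395 in the thresholded list, ranks of 324, 503 and 390 in replicates 1, 2 and 3 and a signal 6.51-fold below that of su(Hw). Rbp9, an RNA-binding protein gene, had 5 summits with a best rank of 427, and Trl, the gene of the GAGA factor, had 4 with a best rank of 449, with signals 7.11-fold and 7.41-fold lower. For the partners that su(Hw) recruits, the fold below su(Hw) was 16.2 at Cp190 (rank 1108, and 966, 1618 and 1049 in the replicates) and 20.7 at mod(mdg4) (rank 1450, and 1235, 2120 and 1491). M1BP, which binds the promoter element motif 1, ranked 1148 and Nup98-96, a nuclear pore gene, 1693. The remaining 6 with a summit ranked from 2394 (pita) to 5714 (e(y)2), and ZIPIC, dwg, Ibf2, HIPP1, Elba1, Elba2, Elba3, insv and Topors had none.

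Ranked by the sum over replicates of the absolute difference in log2 rank, the 5 peaks most like that of su(Hw) were those nearest the starts of Loxl1 (1.38), CG33453 (1.53), CG32301 (1.78), ush (2.06) and Glut3 (2.11), over 3 replicates. They held ranks 4, 7, 6, 3 and 8. Loxl1 encodes a lysyl oxidase, ush a zinc finger partner of GATA factors and Glut3 a glucose transporter. Their widths were 987, 893, 874, 865 and 883 bp, all below the 1158 bp of su(Hw), and their best sites within 100 bp of the summit scored 21.1, 25.5, 29.7, 20.8 and 24.4, all above its 12.2. Of these 5, ush was the one whose summit lay inside a gene.

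In the older build, dm3, the peaks were matched by the spacing of their neighbours, with no coordinates converted: 15 of the 26 pooled summits had a dm3 summit at the same spacing within 40 bp. The su(Hw) peak spanned chr3R:10133350-10134481 (dm3), 1132 bp, with a signal of 14903. It again ranked 5 in the thresholded list, 5 in the pooled list and 5, 4 and 5 in replicates 1, 2 and 3. The ratios to the list median were 106, 130 and 131 in the replicates. Of the 6 thresholded summits of the region, 6 had a match in the dm3 thresholded list, under a looser rule than 40 bp. The matches at trx and between Afti and ATPsynE, at 10112656 and 10152731 in dm3, were off the spacing of the others by more than 40 bp. The summit between Afti and ATPsynE had no match in the dm3 lists of replicates 2 and 3.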

How the data were processed

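The authors deposited peak lists in dm6 and dm3: 1 per replicate, 1 pooled and 1 thresholded. Not given in the sources used here are the aligner, the peak caller, the threshold and the depth in reads; the control alignment was not analysed here. Column 7 is the signal as deposited by the authors, with no stated scale, so it was ranked within a list or divided by the list's median. Column 9, by the deposited peak format a −log10 q-value, was tied at the top for 4732 of 6127 thresholded peaks. A summit is the interval start plus the offset the authors give, counted from 1. No peak was identical between replicate lists.

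Genes came from Ensembl release 115 and sequence from RefSeq Release 6. Summits within 200 bp matched. The matrix started from 137 exact consensus matches and was refined over 10 rounds to 589 sites. It was added after the data were seen. Methods were checked on simulated summits and planted sites. No test was made, since there is 1 group and 1 gene, and percentiles are descriptions. Members, gene lists and alternatives were chosen with earlier results of these data known. Genes named were all of the region, genes of the insulator list with a rank under 2000 and the 5 peaks nearest in rank. Others in that list were named after their values were seen. Python 3.11.15, numpy 2.4.6, pandas 2.3.3 and scipy 1.17.1 were used.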

Additional observations from a re-analysis of the deposited data

How the results depend on the processing

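Under the alternatives, 39 values were labelled close to the reported ones and 20 moved. The label was broad for counts and percentiles. With a 5 kb flank, a percentile of the summit count of 68.1 in place of 83.2 was labelled close. So were 3685 genes in place of 5182 by the promoter rule. The rank of the su(Hw) peak stayed 5 in dm3 and with summits merged, and was 1, shared with all tied peaks, by −log10 q. The 6 summits became 2 with a 5 kb flank, 11 with 50 kb, 2 among the 3063 strongest thresholded peaks and 26 in the pooled list. Their percentile was 55.1 in that stronger set. To leave out a replicate in turn, a thresholded summit was kept if each other replicate list, cut to the thresholded depth, had a match. This kept 4586 to 4808 thresholded summits in all, with 4 to 5 in the region and a percentile of 73.4 to 85.8. Matching at that depth in all 3 replicates left 4 of the 6, so the fall cannot be ascribed to leaving out a replicate. The signal ratio of 118 ranged from 114 to 126 without each replicate, and was 59.8 over the last peak at the thresholded depth and 0.721 over the strongest peak. From the midpoint of the interval, the distances to the su(Hw) and Polr2I starts were 395.5 and 895.5 bp, and from the replicate 2 summit 475 and 975 bp. Summits with a consensus numbered 1 within 100 bp with up to 1 mismatch. They numbered 0 within 50 bp, 3 within 200 bp, 0 without mismatch and 5 with up to 2. At 200 bp and at up to 2 mismatches, su(Hw) was among them. Genes with a summit, 5182, numbered 1999 by body only, 8273 within 5 kb and 3044 in the stronger set. Those of the insulator list, 13 with Rbp9 included, numbered 7 by body only. Matrices from the strongest 300 and 1000 peaks picked the same site A, above 98.4% and 98.0% of windows 2 kb away. Causes were not tested beyond the construction of each setting. Depth is unknown, so no floor can be given for stretches without a summit. No paired analysis was possible because all samples belong to 1 group.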
